A study of Mus musculus with 16 samples.

Results

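Acyl-CoA thioesterases are the enzymes that split acyl-CoA esters into a free acid and coenzyme A. The 10 family genes described here (Acot1, Acot2, Acot3, Acot4, Acot5, Acot6, Acot8, Acot9, Acot12 and Acot13) were taken by exact gene name from a joined table of 25803 genes, and all 10 were found. Of the 14488 genes with enough counts to be tested, 9 are members, and Acot5 is the member that was too low. The libraries come from livers of male mice given a high-fat diet (HFD) for 12 weeks, a diet that both genotypes shared. Control mice, called WT in the series' design text, were compared with mice in which Cpt1a was ablated in the liver, labelled LKO. Each genotype was killed after a 16 h fast or after that fast and 6 h of refeeding, which gives 4 groups of 4 libraries of poly-A RNA. Neither the strain, the age, the allele nor the means of deletion is given in the labels.

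Cytosolic, mitochondrial and peroxisomal thioesterases set how much activated fatty acid each compartment holds and return free coenzyme A, which fatty acid oxidation needs in a limited pool. In rodents, fasting, fat feeding and drugs that activate the nuclear receptor PPARA are known to raise several of them in the liver. Acot1 to Acot6 form the type I family, copies of an ancestral gene that act in different compartments, whereas Acot8, Acot9, Acot12 and Acot13 are built on another fold, the hotdog domain. Cpt1a, the gene deleted, encodes carnitine palmitoyltransferase 1A, which admits long-chain acyl groups to mitochondria and draws on the same acyl-CoA pool.

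Type I members lie side by side on chromosome 12. In the deposited coordinates, whose build is mm39 per the submitters' processing notes, the cluster runs from 84034635 to 84158123, over 123489 bases, in the order Acot2, Acot1, Acot4, Acot3, Acot5 and Acot6, each on the plus strand. Elsewhere, Acot8 lies on chromosome 2 (164634685 to 164646802, minus strand), Acot9 on chromosome X (154045439 to 154080650, plus strand), Acot12 on chromosome 13 (91889631 to 91934267, plus strand) and Acot13 also on chromosome 13 (25001931 to 25015523, minus strand). Coding sequences of the cluster, from GENCODE M21, were 75.2% to 95.2% identical in pairs, with Acot1 and Acot2 the closest at 95.2% over 1239 aligned bases and Acot3 and Acot5 next at 85.8%. Identity between a cluster gene and a member outside it ran from 55.9% to 63.8%. These are shares of the aligned bases with gaps left out, and the level that unrelated sequences reach was not measured. The values for members outside the cluster are therefore not by themselves a sign of likeness.

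How far such copies can be told apart by a read was measured on the transcripts. A stretch of 100 bases identical to one in another family gene made up 17.12% of the windows of Acot2, 12.35% of those of Acot1, 7.79% of those of Acot5 and 4.27% of those of Acot3. The same share was 0.95% for Acot6 and 0.34% for Acot4, and 0% for Acot8, Acot9, Acot12 and Acot13. Counted against any annotated gene, the share of Acot3 was 13.8%, most of it with Gm49366 (330 of the 478 shared windows), and that of Acot9 was 0.70%, with Acot10 (15.15% for stretches of 50 bases). The single values of Acot1, Acot2, Acot3 and Acot5 are therefore uncertain to the extent that the counting split or dropped shared reads, which the sources used here do not state, and sums over the cluster are given beside them. These sums do not include Gm49366.

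Promoter sequences of the members that the results turn on are shown because these 6 genes rose in fasted LKO liver. They are the 250 bases before the RefSeq start on GRCm38.p6, at chr12:84009252-84009501 for Acot1, chr12:83987611-83987860 for Acot2, chr12:84051894-84052143 for Acot3, chr12:84038129-84038378 for Acot4 and chr13:91741271-91741520 for Acot12, all on the plus strand, and at chr2:164804882-164805131 on the minus strand for Acot8. Each is written 5′ to 3′ along its gene, and capitals mark matches to 3 motifs, namely CCAAT, the box bound by NF-Y, then the core promoter element TATAAA, and the nuclear receptor half-site AGGTCA. Both strands were searched, and a match on the other strand appears as its reverse complement.
Acot1: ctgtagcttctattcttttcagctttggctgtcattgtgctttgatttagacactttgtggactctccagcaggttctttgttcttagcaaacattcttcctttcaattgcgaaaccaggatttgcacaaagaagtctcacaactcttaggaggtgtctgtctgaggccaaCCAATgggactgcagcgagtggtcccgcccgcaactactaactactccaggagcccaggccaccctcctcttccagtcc
Acot2: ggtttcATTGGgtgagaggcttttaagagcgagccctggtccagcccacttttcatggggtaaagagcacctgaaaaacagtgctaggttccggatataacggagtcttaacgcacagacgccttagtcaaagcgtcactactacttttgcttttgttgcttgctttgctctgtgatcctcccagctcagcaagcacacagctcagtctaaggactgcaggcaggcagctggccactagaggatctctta
Acot3: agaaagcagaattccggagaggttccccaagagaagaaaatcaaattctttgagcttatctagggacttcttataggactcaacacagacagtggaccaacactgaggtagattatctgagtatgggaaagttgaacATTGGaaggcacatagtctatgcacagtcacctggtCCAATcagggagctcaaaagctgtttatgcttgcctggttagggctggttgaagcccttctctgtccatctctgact
Acot4: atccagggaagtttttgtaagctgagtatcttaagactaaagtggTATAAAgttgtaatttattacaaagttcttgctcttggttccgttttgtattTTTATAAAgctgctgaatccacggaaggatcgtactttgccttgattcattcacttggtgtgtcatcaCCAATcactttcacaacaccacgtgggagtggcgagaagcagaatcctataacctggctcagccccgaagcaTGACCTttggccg
Acot8: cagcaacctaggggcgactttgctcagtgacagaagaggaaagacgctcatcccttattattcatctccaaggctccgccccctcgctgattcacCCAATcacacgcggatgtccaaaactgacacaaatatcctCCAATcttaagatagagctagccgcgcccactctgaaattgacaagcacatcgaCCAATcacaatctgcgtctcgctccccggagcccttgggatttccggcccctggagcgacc
Acot12: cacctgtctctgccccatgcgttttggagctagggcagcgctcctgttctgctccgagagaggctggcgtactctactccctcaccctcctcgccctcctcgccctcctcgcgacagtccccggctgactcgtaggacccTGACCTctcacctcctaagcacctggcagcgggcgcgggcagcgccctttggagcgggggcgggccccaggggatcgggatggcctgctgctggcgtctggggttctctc

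RefSeq gave such a sequence for 8 of the 10 members. A CCAAT match was present in 7 of the 8 and missing from Acot12, against 33.85% of 32851 mouse promoters of the same length. Acot8 held 3 of them in its window, and Acot3 held 2, at 113 and 77 bases before the start. Acot1 had its match 79 bases and Acot4 85 bases before the start, and that of Acot2 lay farther off, at 244 bases. The half-site AGGTCA was found in 3 of the 8 (Acot4, Acot5 and Acot12) against 14.02% of promoters, and TATAAA in 2 of the 8 (Acot4 and Acot9) against 12.37%. In Acot4 a pair of TATAAA matches on opposite strands overlaps. The direct repeat called DR1, made of 2 copies of AGGTCA spaced by 1 base, the arrangement that PPARA and its partner RXR bind, was in 0 of the 8 windows and in 0.03% of promoters. Only exact copies were searched, and 11 of the 32851 promoters held one. A count of 0 in 8 windows therefore does not tell whether these genes have inexact or more distant sites. In spite of their like coding sequences, cluster promoters were 55.7% to 64.7% identical over the aligned bases, in the range of pairs that include a member from outside the cluster (54% to 72.1%).

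Library totals ran from 14721601 to 24618230 counts, and levels are given as CPM (reads of a gene per mega-count of the TMM-scaled library total). Cpt1a was at 86.1 to 126 CPM in the fasted LKO libraries against 378 to 556 in fasted controls, and at 39.9 to 75.2 against 319 to 620 when refed, so each library fits its genotype label. Hepatocyte markers summed to at least 62390 CPM in each library, while the 4 adipocyte markers summed to at most 58.1 and the 4 cholangiocyte markers to at most 45.9. Fold changes below are log2 values from edgeR's quasi-likelihood test with their standard error (SE), and a gene is called where the Benjamini-Hochberg adjusted p over the 14488 genes is under 0.05. The labels number the samples of a group but do not say that each is a separate mouse, and p-values measure the spread between these libraries.

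Levels between genes are compared per length, as RPKM (CPM per kilobase of the deposited gene length). In fasted control liver the order was Acot13 (75.3 ± 2.34 RPKM, SD, n = 4), Acot12 (41.8 ± 6.06), Acot1 (36.8 ± 10.6), Acot8 (16.4 ± 1.24), Acot4 (14.01 ± 3.15), Acot3 (12.0 ± 3.36), Acot2 (9.06 ± 1.37), Acot9 (1.72 ± 0.575), Acot6 (0.316 ± 0.0953) and Acot5 (0.0495 ± 0.0532). The ranges of Acot12 and Acot1 overlapped, as did those of Acot8 and Acot4, Acot4 and Acot3, and Acot3 and Acot2. Acot13 stood above Acot12 in each library of that group, and Acot9 below Acot2. In fasted LKO liver Acot1 had the highest mean, at 136 ± 72.0 RPKM, but its range of 72.6 to 221 overlapped the 63.1 to 79.1 of Acot13. Refed controls kept Acot13 (68.2 ± 7.52), Acot12 (33.0 ± 4.65) and Acot1 (26.0 ± 7.26) in front, and there Acot4 (18.7 ± 4.57) and Acot3 (12.4 ± 3.86) had means above those of Acot8 (12.0 ± 1.47) and Acot2 (6.78 ± 3.99). How the deposited length was derived is not given in the sources used here, and the order between genes depends on it. A gene such as Acot4, with 6674 bases, has its reads divided by all of them.

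**Figure D1:**
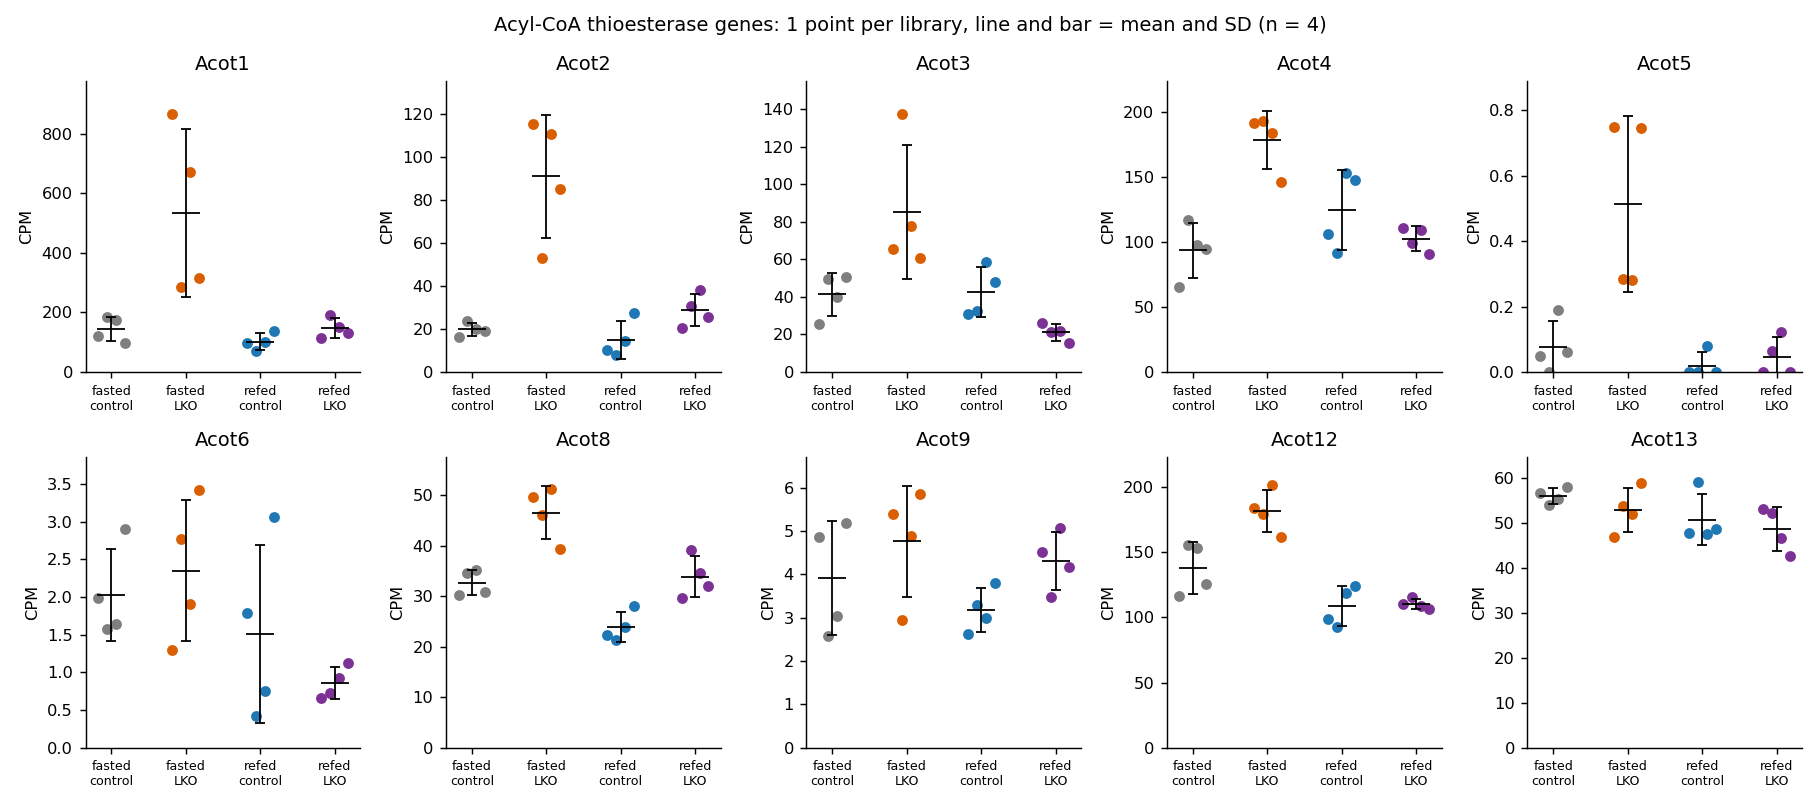
Level of each member in CPM (linear axis from 0, own scale per gene) in the 4 groups, 1 point per library, with the mean and SD (n = 4). Fasted LKO libraries stand above the fasted controls for Acot1, Acot2, Acot3, Acot4, Acot5, Acot8 and Acot12, and Acot13 is nearly level across the groups.

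In the fasted state, LKO liver carried more thioesterase mRNA. Of the 9 members tested, 6 rose (Acot1, Acot2, Acot3, Acot4, Acot8 and Acot12) and 0 fell, against 12.2% of all genes called (5.75% higher, 6.48% lower). The median log2 difference of the 9 was 0.51, against 0.018 over all genes. More cells of a type and more RNA per cell cannot be told apart in bulk liver.

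Acot1 encodes the cytosolic long-chain enzyme. Libraries S40, S41, S42 and S43, the fasted controls, had 121, 183, 175 and 97.7 CPM, and S44, S45, S46 and S47, the fasted LKO, had 865, 284, 672 and 316 CPM. The groups did not overlap, and S44 and S46 were far above S45 and S47. The gene rose by 1.89 (SE 0.33, edgeR adjusted p = 0.0018), a fold of 3.70. Omitting 1 fasted library at a time (8 refits) gave a lowest estimate of 1.56, without S44, and an adjusted p of at most 0.0085.

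Acot2 is the mitochondrial copy, whose product releases fatty acids inside the matrix. Its levels were 16.4, 23.8, 20.1 and 19.3 CPM in fasted controls and 115, 52.9, 111 and 85.1 CPM in fasted LKO, again with S44 and S46 on top. The fold was 4.58, the highest of the 9 members tested (edgeR adjusted p = 6.4e-04). Since Acot1 and Acot2 share the most sequence, their counts were also summed: the pair rose by 1.93 (SE 0.317, edgeR adjusted p = 0.0013). The summed value does not depend on how reads were split between these 2 copies, but it does depend on whether shared reads were dropped. Acot1 made up most of the summed counts (17336 of 19644 in S44 and 2436 of 2767 in S40). The sum is therefore no check on the fold of Acot2.

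Peroxisomal members came next. Acot3 stood at 25.7, 49.5, 39.8 and 50.6 CPM in fasted controls and at 65.6, 137, 77.5 and 60.5 CPM in fasted LKO, with S45, not S44 or S46, the highest. It rose by 1.04 (SE 0.28, edgeR adjusted p = 0.0214), but missed the threshold without S40 (0.067), without S42 (0.057) and without S45 (0.067, where the estimate was 0.71). Acot4, whose product acts on the CoA esters of dicarboxylic acids such as succinate, was at 65.6, 116, 97.9 and 94.1 CPM in fasted controls and at 191, 192, 183 and 146 CPM in fasted LKO. Each LKO library lay above each control, a rise of 0.93 (SE 0.18, edgeR adjusted p = 0.0030) that was called in 8 of the 8 single-library omissions.

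Acot8 codes for the broad peroxisomal enzyme of the hotdog type, which also accepts bile acid CoA esters. It was at 30.3, 34.6, 35.1 and 31.0 CPM in fasted controls and at 49.7, 46.1, 51.3 and 39.5 CPM in fasted LKO, without overlap. Its rise of 0.51 (SE 0.11, edgeR adjusted p = 0.0059) was called in 8 of the 8 single-library omissions. Acot12, the cytosolic acetyl-CoA hydrolase, was at 116, 156, 154 and 125 CPM against 184, 179, 201 and 162 CPM. The groups did not overlap, the rise was 0.40 (SE 0.11, edgeR adjusted p = 0.0290), and the call was lost without S40 (0.092), S43, S44 or S46 and with the fasted groups fitted alone (0.063).

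Acot6, Acot9 and Acot13 were not called in the fasted comparison. Acot6, a peroxisomal copy, had 26 to 47 counts a library in fasted controls and 26 to 55 in fasted LKO. Acot9, a mitochondrial enzyme, ran from 2.57 to 5.19 CPM and from 2.94 to 5.84 CPM. Acot13, the small mitochondrion-associated thioesterase, differed by −0.08 (SE 0.09, edgeR adjusted p = 0.613) with 54.1 to 58.1 CPM in controls and 46.97 to 58.9 CPM in LKO. Acot5 gave 1, 0, 3 and 1 counts in fasted controls and 15, 5, 5 and 12 counts in fasted LKO. Those ranges did not touch, and with 0 to 2 counts in each refed library the gene was at the limit of detection outside fasted LKO. The authors' deposited table has an adjusted p of 0.0278 for Acot5 in this comparison.

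Non-overlap of the 4 LKO and 4 control libraries held for 6 of the 9 members tested, against 16.9% of genes in either direction. Summed over the cluster, Acot1 to Acot6 had 231, 375, 335 and 265 CPM in fasted controls and 1239, 670, 1046 and 612 CPM in fasted LKO. The sum rose by 1.57 (SE 0.232, edgeR adjusted p = 6.6e-04). Hepatocyte markers summed to 71500 to 79500 CPM in fasted controls and 62870 to 70910 in fasted LKO (2 of the 8 called lower), and the lymphocyte and plasma cell markers to 3.48 to 6.06 and 12.2 to 32.4 (1 of the 4 tested called higher, Jchain). Adipocyte markers summed to 9.81 to 58.1 and 0.448 to 9.63 CPM, nearly all of it Cfd, which was lower in LKO, and red blood cell markers to 356 to 1176 and 274 to 462 (1 of 3 called lower). Library S44, the highest for Acot1, had 45.9 CPM of cholangiocyte markers against 4.14 to 10.9 in the other fasted libraries. The part of these differences in the result was not tested. Without S44 the rises of Acot1, Acot2, Acot3, Acot4 and Acot8 were still called, and that of Acot12 was not (edgeR adjusted p = 0.066). That omission concerns S44 alone and does not remove the other marker differences. Lymphocyte and plasma cell markers, for example, summed to 32.4, 17.7 and 27.8 CPM in S45, S46 and S47.

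**Figure D2:**
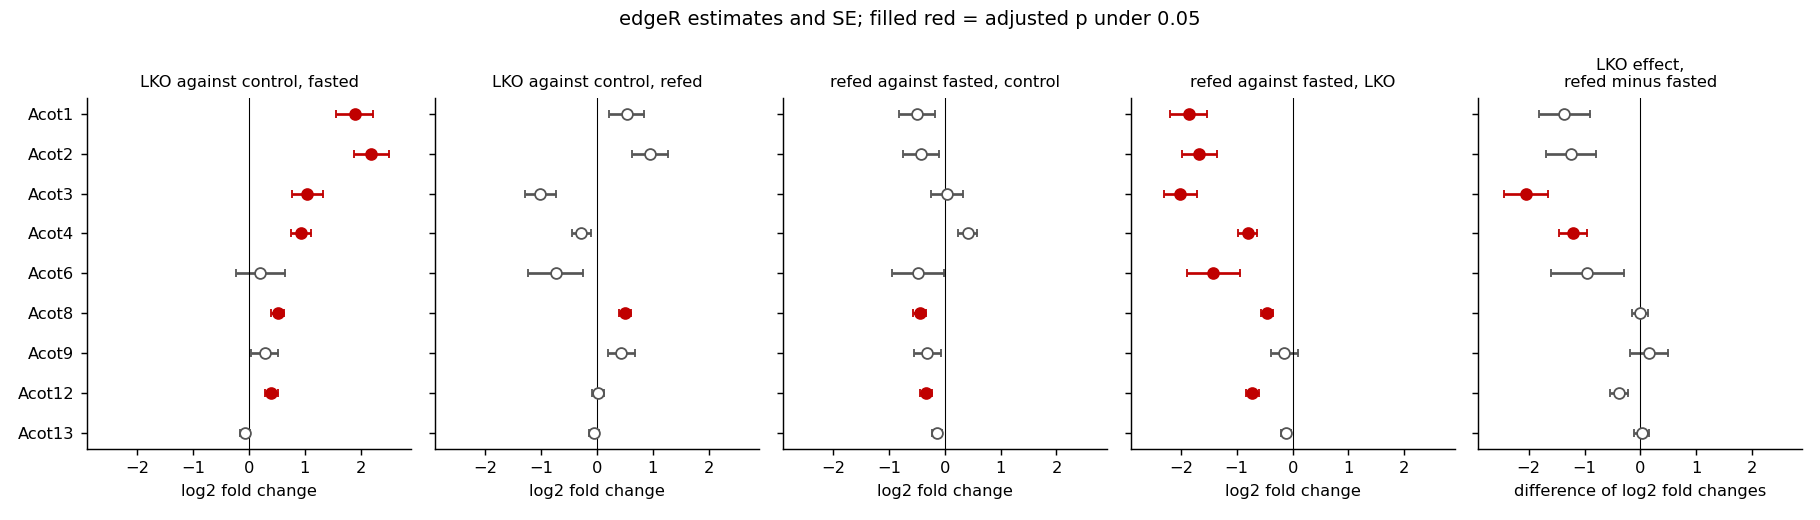
edgeR log2 fold changes with SE for the 9 tested members in the 5 comparisons (x axis, log2), filled red where the adjusted p is under 0.05. The fasted LKO column holds 6 filled points to the right of 0, the refed LKO column 1, and the column for refeeding in LKO 7 to the left of 0.

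After refeeding, fewer members differed between the genotypes. Of the 9 members tested, 1 rose (Acot8) and 0 fell in refed LKO against refed control, where 3.63% of all genes were called (2.28% higher, 1.35% lower). Groups did not overlap for 2 members, against 11.7% of genes. The median log2 difference was 0.02, against −0.013 over all genes.

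Acot8 was at 22.4, 21.4, 24.0 and 28.0 CPM in refed controls S48 to S51 and at 29.7, 39.1, 34.7 and 32.0 CPM in refed LKO S52 to S55. Its rise of 0.50 (SE 0.11, edgeR adjusted p = 0.0191) had nearly the size seen in the fasted state, and the difference between the states was −0.01 (SE 0.15, adjusted p = 0.982). The refed call missed the threshold without S48 (0.068), without S49 (0.051) and without S53 (0.061).

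Acot3 went the other way. It stood at 30.9, 32.5, 58.8 and 47.9 CPM in refed controls and at 26.3, 21.1, 22.1 and 15.3 CPM in refed LKO, so that each LKO library lay under each control. The difference was −1.01 (SE 0.28), and edgeR's adjusted p of 0.0572 did not pass. It passed with no filter on low counts (0.0467), with the refed groups fitted alone (0.0406) and with DESeq2 (0.0096), and the authors' deposited table gives an adjusted p of 5.6e-04. With any 1 of the 8 refed libraries omitted, edgeR called it 0 times, with an adjusted p of up to 0.164 (S55 omitted).

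Acot1 and Acot2 had means above control without passing. Acot1 was at 98.6, 69.1, 101.6 and 139 CPM in refed controls and at 115, 192, 151 and 133 CPM in refed LKO, an overlap, with a difference of 0.53 (SE 0.32, edgeR adjusted p = 0.399). Acot2 was at 10.03, 7.86, 14.3 and 27.4 CPM against 20.6, 30.9, 37.9 and 25.4 CPM, where control S51 stood above LKO libraries S52 and S55. Its difference of 0.95 (SE 0.32, edgeR adjusted p = 0.111) was called without S51 (1.41, adjusted p = 0.012) and with DESeq2 (0.0367). Acot4, at −0.28 (SE 0.17), had 91.6 to 153 CPM in controls and 90.4 to 111 in LKO. The sum of Acot1 to Acot6 was 202 to 365 CPM in refed controls and 265 to 343 in refed LKO, a difference of 0.07 (SE 0.226, edgeR adjusted p = 0.905).

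The shares of single genes in the cluster were also compared. Per length, Acot3 was 16.4% to 23.5% of the summed RPKM of Acot1 to Acot6 in refed controls and 7.01% to 12.1% in refed LKO. Acot2 was 8.05% to 14.8% in refed controls and 14.9% to 22.0% in refed LKO, and Acot1 35.7% to 45.9% and 46.5% to 58.1%. The RPKM ratio of Acot2 to Acot3 was 0.379 to 0.897 in refed controls and 1.23 to 2.69 in refed LKO. Acot4 over Acot3 was 1.34 to 1.76 and 2.17 to 3.04, and Acot1 over Acot3 was 1.52 to 2.804 and 3.84 to 7.96. None of these ranges overlapped between the refed genotypes. In the fasted state the share of Acot2 did not overlap either (11.4% to 13.9% in controls and 14.5% to 24.2% in LKO). Nor did that of Acot4, which was lower in LKO (17.55% to 22.38% in controls and 8.90% to 17.36% in LKO). The other shares and the ratios given here did overlap when fasted. Acot2 over Acot3 was then 0.596 to 1.002 in controls and 0.603 to 2.75 in LKO, with S45 alone among LKO libraries under 2. These ratios are descriptions of the libraries, with no test, and they compare genes whose reads can be exchanged in part.

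**Figure D3:**
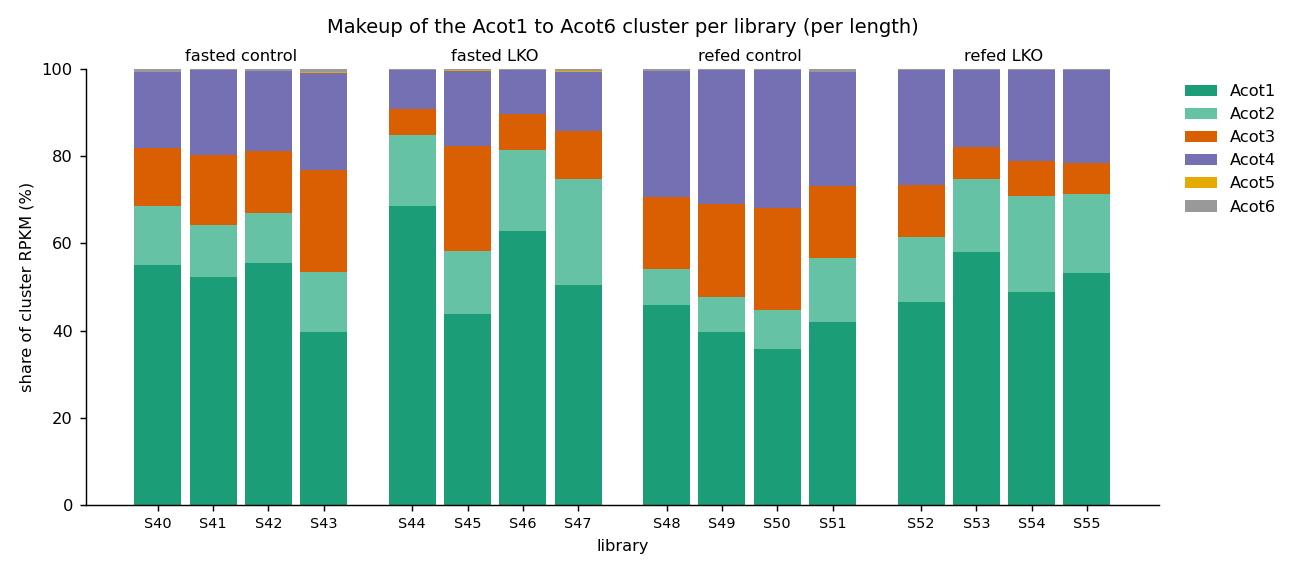
Share of each type I gene in the summed RPKM of Acot1 to Acot6 (y axis, %), 1 stacked bar per library, by group. Acot3 (orange) takes 16.4% to 23.5% in refed controls and 7.01% to 12.1% in refed LKO, and S45 is the fasted LKO library with the largest Acot3 share (24.1%).

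Refeeding lowered few members in control liver. Against 15.4% of all genes called (7.79% higher, 7.65% lower), 2 of the 9 tested fell and 0 rose: Acot8 by 0.45 (SE 0.11, edgeR adjusted p = 0.0115) and Acot12 by 0.34 (SE 0.11, adjusted p = 0.0495). Acot12 was at 98.8, 92.4, 119 and 124 CPM in refed controls, overlapping the fasted ones, and its call was lost in 6 of the 8 single-library omissions, up to an adjusted p of 0.135 without S41. Acot8 kept its call in 8 of 8, and was the 1 member whose refed and fasted control libraries did not overlap, as 20.4% of genes did not. Acot1 (−0.50, SE 0.32), Acot2 (−0.43, SE 0.32), Acot3 (0.04, SE 0.28) and Acot4 (0.41, SE 0.17) did not pass. Without S51, Acot2 was called (−0.88, adjusted p = 0.037), and without S49 so was Acot4 (adjusted p = 0.0495). The median of the 9 was −0.34, against 0.009 over all genes.

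In LKO liver refeeding lowered most of the family. Here 7 of the 9 members tested fell and 0 rose, against 18.1% of genes called (9.28% higher, 8.78% lower), and the median was −0.80 against −0.017 over all genes. The steepest was Acot3, at −2.01 (SE 0.29, edgeR adjusted p = 2.4e-04), a level 4.03-fold lower. Acot1 fell by 1.86 (SE 0.33, adjusted p = 0.0011), Acot2 by 1.67 (SE 0.31, adjusted p = 0.0018) and Acot4 by 0.80 (SE 0.17, adjusted p = 0.0047). Acot12 fell by 0.72 (SE 0.11, edgeR adjusted p = 4.9e-04) and Acot8 by 0.46 (SE 0.11, adjusted p = 0.0070). These 6 kept their call in 8 of the 8 single-library omissions.

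Acot6 was the seventh. It was at 1.30, 2.77, 1.91 and 3.42 CPM in fasted LKO and at 0.665, 0.720, 0.927 and 1.13 CPM in refed LKO, without overlap, and fell by 1.42 (SE 0.47, edgeR adjusted p = 0.0461). With 11 to 26 counts a library after refeeding, this call rested on few reads: it was kept in 1 of the 8 single-library omissions (adjusted p of 0.122 without S47) and was missed by limma-voom (0.072) and with no filter (0.051). Refed and fasted LKO libraries did not overlap for 7 of the 9, against 20.6% of genes. The refed LKO libraries are the comparison group here and in the refed genotype comparison, and fasted LKO libraries likewise serve in 2 comparisons, so these values are not independent of those above.

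Whether the genotype effect differed between the states was tested as an interaction, refed minus fasted. It was called for 2 of the 9 members, Acot3 and Acot4, both lower, against 0.538% of genes (0.311% higher, 0.228% lower). The median of the 9 was −0.95, against −0.014 over all genes. Acot3 changed from 1.04 fasted to −1.01 refed. Acot4 changed from 0.93 to −0.28, a difference of −1.21 (SE 0.25, edgeR adjusted p = 0.0426). That call was kept in 4 of the 16 single-library omissions (up to an adjusted p of 0.085, S55 omitted), where the estimate ran from −1.34 to −1.08, and in 6 of the 6 other settings tried. The call for Acot3 was kept in 7 of the 16 omissions and in 6 of the 6 settings.

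Acot1 at −1.36 (SE 0.45, edgeR adjusted p = 0.149), Acot2 at −1.24 (SE 0.45, adjusted p = 0.175) and Acot6 at −0.95 (SE 0.66, adjusted p = 0.494) did not pass. Their estimates are as large as that of Acot4 for the first pair, with wider errors. The sum of Acot1 to Acot6 gave −1.49 (SE 0.322, edgeR adjusted p = 0.0492), at the edge of the threshold. Outside the cluster, the differences for Acot8 (−0.01, SE 0.15), Acot9 (0.16, SE 0.34), Acot12 (−0.38, SE 0.16) and Acot13 (0.02, SE 0.13) were not called.

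Neighbours of the cluster were examined for the same changes. The nearest tested genes outside it are Riox1 and Numb on the side of Acot2 and Dnal1 and Mideas on the side of Acot6, and none of these 4 was called in any of the 5 comparisons. In fasted LKO their differences were −0.20 for Riox1, 0.31 for Numb (edgeR adjusted p = 0.059), −0.07 for Dnal1 and 0.51 for Mideas (adjusted p = 0.110). A long noncoding RNA, 4732463B04Rik, lies on the minus strand across Acot4 and the start of Acot3. It averaged 1.53 CPM, against 125 for Acot4 and 47.6 for Acot3, and differed by 1.07 in fasted LKO (adjusted p = 0.055) and −1.03 in refed LKO (adjusted p = 0.109), and it rose on refeeding of controls by 1.14 (edgeR adjusted p = 0.0351). Library preparation with dUTP marks strand, but whether the counting used it is not given in the sources used here, so reads of overlapping genes may have been exchanged. The same limit holds for Acot8, which overlaps Snx21 (12.4 CPM, not called between the genotypes in either state).

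**Figure D4:**
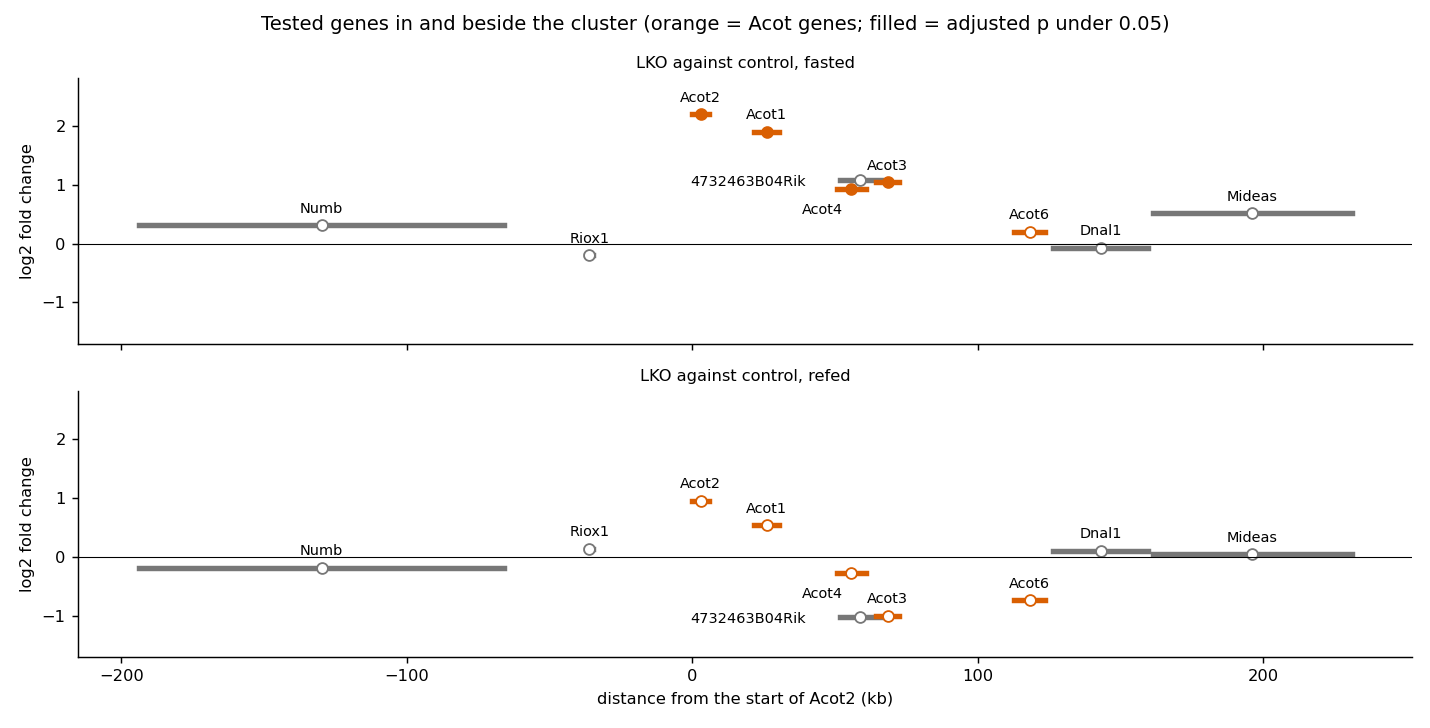
Log2 fold change of LKO against control (y axis) for the tested genes in and beside the cluster, placed by distance from the start of Acot2 (x axis, kb), when fasted (top) and refed (bottom); bars span each gene and filled points have an adjusted p under 0.05. In the fasted panel 4 Acot genes are filled and the neighbours lie between −0.20 and 0.51, apart from the antisense RNA at 1.07.

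Grouped by known location, the summed level of each compartment was higher in fasted LKO. Summed RPKM of the cytosolic Acot1 and Acot12 was 63.0 to 94.1 in fasted controls and 127 to 277 in fasted LKO. The mitochondrial sum (Acot2, Acot9 and Acot13) was 84.6 to 89.1 and 97.7 to 122, and the peroxisomal sum (Acot3, Acot4, Acot5, Acot6 and Acot8) 32.8 to 49.4 and 60.2 to 92.5. In the refed state, the sums were 45.7 to 73.0 and 62.8 to 84.1 for the cytosol, 70.0 to 84.5 and 70.8 to 85.7 for mitochondria, and 34.0 to 52.2 and 34.2 to 40.7 for peroxisomes, and the genotypes overlapped in each. Means of the mitochondrial sum were 86.1 ± 2.09 and 115 ± 11.4 when fasted (SD, n = 4), a rise smaller in proportion than in the cytosol (78.6 ± 16.3 and 192 ± 75.1), with Acot13 making up most of the control level. Of the mitochondrial genes, Acot2 alone was called, with means of 9.06 and 41.4 RPKM, while Acot13 had 75.3 and 71.1 and Acot9 1.72 and 2.10. These sums have no test.

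**Figure D5:**
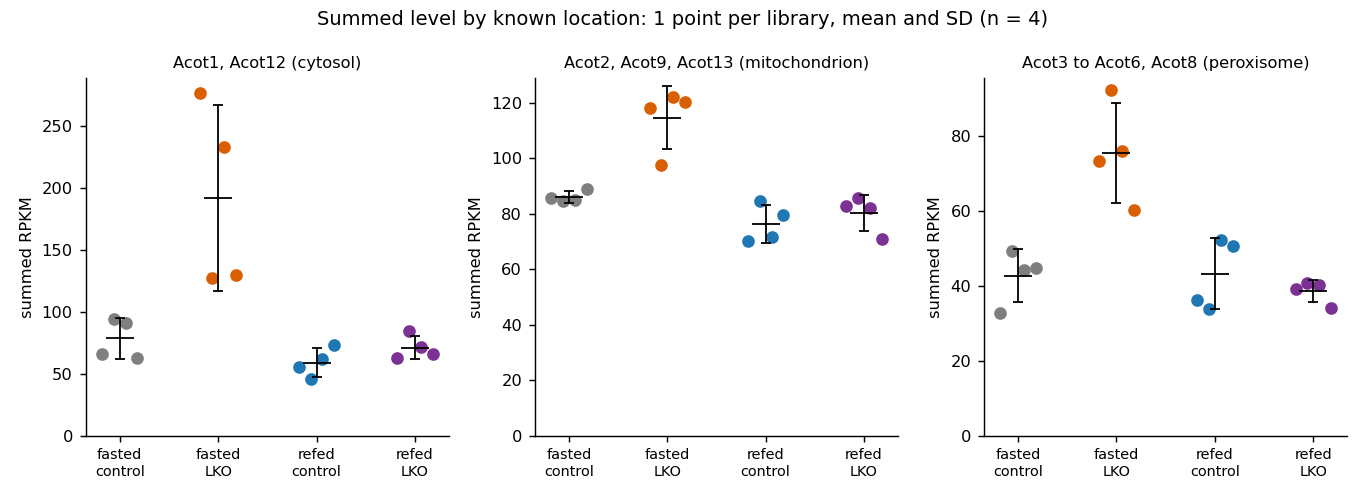
Summed RPKM of the members by the compartment they are known to act in (y axes from 0), 1 point per library with mean and SD (n = 4). Fasted LKO libraries are above the fasted controls in each panel, and refed genotypes overlap in each.

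Within the family, members did not vary together from library to library in the same way. After taking out group means, Acot1 ran with Acot2 (r = 0.75 within groups), with Acot8 (0.80) and with Acot12 (0.69), but not with Acot3 (−0.10, against 0.53 over the 16 libraries with group means left in). Acot3 ran with Acot4 (0.79), and Acot4 with Acot12 (0.86). The members did not fall into cleanly separate sets: Acot4 was at 0.45 with Acot1 and 0.54 with Acot2, and Acot3 at 0.54 with Acot12. Values of a library share its depth and scaling, and these correlations are descriptions of 16 libraries. In fasted LKO, S45 alone set Acot3 apart: it was the highest for Acot3 (137 CPM) while the lowest for Acot1 (284 CPM) and Acot2 (52.9 CPM). S44 and S46 were the highest for Acot1 and Acot2. For Acot3 they stood at 65.6 and 77.5 CPM, above the 60.5 CPM of S47.

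Genes whose log2 CPM followed each member most closely were sought among 8857 genes with a mean of at least 5 CPM. For Acot2 they were Abcb4, the phospholipid exporter of bile (r = 0.97 over 16 libraries, 0.95 without the 2 farthest libraries S44 and S46), Decr2 (0.96) and Etfdh (0.96). Acot1 also had Abcb4 first (r = 0.95), then Tram2 and Crat, carnitine acetyltransferase (both at 0.94 to 0.95 by r). Acot8 had Decr2 among its 3 (0.96). The list for Acot3 held none of these: it was Srrm2 (0.89), Ypel5 (0.88) and Arl8b (0.87). Acot4 had Ncor1, a nuclear receptor corepressor (0.92), Rnf19a (0.92) and Pnpla8 (0.91), Acot12 had Bfar (0.95), Stk25 (0.95) and Zfand6 (0.95), and Acot6 had Dab2ip (0.88), Ptpra (0.87) and Ganc (0.86). Acot9 had S100a11 (0.82), Smco4 (0.82) and Atp6v0e (0.80), and Acot13 had Bckdhb (0.88), Ndufa7 (0.84) and Kynu (0.84). These r values include the differences between groups. After taking out group means, r ran from 0.44 (Acot3 with Arl8b) to 0.88 (Acot1 with Abcb4). Srrm2 and Ypel5 were then at 0.64 and 0.62 with Acot3.

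A list of other genes of acyl-CoA hydrolysis and transfer held hydrolases, acyltransferases and the lipid transfer protein gene Pctp. Of its 19 genes, 15 were tested: 3 rose and 4 fell in fasted LKO, where 12.2% of all genes were called, with a median of −0.19. The same share, and 3.63% in refed LKO, 15.4% for refeeding in controls and 18.1% for refeeding in LKO, stands beside the counts of the lists that follow. The 3 that rose were Crat, at 1.05 (SE 0.12, edgeR adjusted p = 2.3e-04), Crot, the peroxisomal carnitine octanoyltransferase, at 0.92 (adjusted p = 0.0040), and Pctp, a lipid transfer protein known to bind the Acot13 product, at 1.02 (adjusted p = 3.5e-04). Pctp was at 179 CPM in fasted controls and 363 in fasted LKO, and rose in refed LKO too (0.75, adjusted p = 0.0070), while Acot13 was not called in any comparison. The 4 that fell were the hydrolase genes Acot11, Them6, Ppt2 and Nudt7, the last a peroxisomal coenzyme A diphosphatase (−0.81, edgeR adjusted p = 0.0362).

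The remaining Acot genes were on that list. Acot11, a thioesterase known from brown fat, went from 8.54, 9.22, 19.3 and 14.2 CPM in fasted controls to 2.65, 4.92, 2.86 and 3.92 CPM in fasted LKO. It fell by 1.84 (SE 0.28, edgeR adjusted p = 8.3e-04), and by 1.59 in refed LKO (SE 0.27, adjusted p = 0.0045), without overlap in either state. Acot7, at 24.1 to 45.7 CPM over the 16 libraries, was not called between genotypes, and Acot10 had at most 1 count in a library. In the interaction, where 0.538% of all genes were called, 1 gene of the list was called, Crat at −0.83 (SE 0.17, edgeR adjusted p = 0.0406).

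Formation of acyl-CoA, the opposite reaction, had 15 of 19 listed genes tested. In fasted LKO 4 rose and 2 fell, with a median of 0.18. Acsl1, the main long-chain acyl-CoA synthetase of liver, rose by 0.73 (SE 0.17, edgeR adjusted p = 0.0126) and Acsl5 by 0.83 (SE 0.10, adjusted p = 2.4e-04), with Slc27a1 and Slc27a2, while Acsm5 and the bile acid ligase gene Slc27a5 fell. In refed LKO 1 rose (Acsf3) and 0 fell. When LKO liver was refed, 5 fell and 2 rose, and in controls 4 fell and 2 rose.

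Peroxisomal oxidation genes, 19 of 19 tested, showed 6 higher and 1 lower in fasted LKO (median 0.28) and 4 higher and 1 lower in refed LKO (median 0.14). Ehhadh, the bifunctional enzyme, rose by 2.97 when fasted (SE 0.41, edgeR adjusted p = 3.9e-04) and by 2.42 when refed (SE 0.40, adjusted p = 0.0038). Of the list of PPARA targets outside the family, 18 of 21 rose and 0 fell in fasted LKO (median 0.72), and 7 rose and 0 fell in refed LKO (median 0.37). Refeeding lowered 9 of the 21 in LKO and 1 in control liver. In the interaction edgeR called 0 of the 21 (4 at an unadjusted p under 0.05), against 0.538% of all genes. DESeq2, which called more genes than edgeR in the interaction, called 1 of the 21. Of 10 genes for PPARA, its relatives and its partners, 1 was called in fasted LKO, Ncor1 (0.60, SE 0.11, adjusted p = 0.0021), and Ppara itself differed by 0.45 (SE 0.20, adjusted p = 0.161). Both counts for these 10 are near the shares of all genes called, 12.2% when fasted and 3.63% when refed: in refed LKO edgeR called 0 (2 at an unadjusted p under 0.05) and DESeq2 called 0.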

How the data were processed

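Poly-A RNA was sequenced in 16 mouse liver libraries. The authors aligned reads with HISAT2 2.0.5 to mm39, per the submitters' processing notes, and the counting tool, its use of strand and the annotation are not given in the sources used here. The authors deposited raw counts per gene, in 4 tables of 8 libraries. The deposited tables also hold log2 fold changes and adjusted p-values by the authors, whose tool is not given in the sources used here, and gene lengths in bases. Columns S40 to S55 were placed in groups by the headings the tables share, and 0 counts differed between tables. There were 64 further columns of per-library values, which were not used.

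Counts were fitted in R 4.3.3 with edgeR 4.0.16 (filterByExpr, TMM factors of 0.941 to 1.07, glmQLFit with 4 groups, glmQLFTest), with limma 3.58.1 and DESeq2 1.42.0 as alternatives. The biological coefficient of variation was 0.185. Adjustment was by Benjamini-Hochberg over 14488 genes at 0.05. The procedure was tested on simulated data, drawn from the fit's own trend of spread with changes planted in fasted LKO. Such data hold neither the spread particular to a gene nor reads shared between copies. The outcome is not reported here. CPM used TMM-scaled totals, and log2 CPM for correlations a prior count of 2. The members, gene lists and tests were chosen with earlier results of these data known. Genes named were Cpt1a, the members, the listed pathway genes, cluster neighbours and the 3 genes most like each member, of which some are not reported here. Alternatives were RLE and upper quartile scaling, no filter, a filter at a mean of 5 CPM, DESeq2, limma-voom, fitting only the groups compared, summing close copies, and leaving out each library. Protein sequences were not used here.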

Additional observations from a re-analysis of the deposited data

Results flagged for a closer look

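Acot13 in refed control library S49 was at 59.1 CPM, far from the 47.4 to 48.6 CPM of the other refed control libraries. It is the 1 sample that stood apart by Dixon's criterion among 36 groups of 4 checked, and chance flags about 1 in 20 groups. Acot13 was not called in any comparison with or without that library.

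The genotype effect differed between the feeding states for Acot3, by −2.05 (edgeR adjusted p = 0.0334), and for Acot4, by −1.21 (edgeR adjusted p = 0.0426), each refed minus fasted. Both calls were near the threshold. Of the 16 single-library omissions, 7 kept the call for Acot3 and 4 that for Acot4.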

How the results depend on the processing

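Of 763 alternative values set against those of single members, 677 kept direction and side of the threshold, 49 lost a call, 11 gained one and 26 changed sign. These 763 include the sums of close copies, each compared with every tested gene it holds. They are therefore not all refits of the member itself. With DESeq2, 924 genes were called in refed LKO against 526, 467 in the interaction against 78, and 3 members in refed LKO against 1, the added ones being Acot2 and Acot3. A filter at a mean of 5 CPM called 197 genes in the interaction. With no filter, and with only the groups compared, 2 members were called in refed LKO (Acot3 added), and 1 instead of 2 for refeeding in controls (Acot12 lost). With no filter the Acot8 interaction was 0.0042 against −0.010. The sum of Acot1 to Acot6 gave 0.0745 in refed LKO, where Acot3, Acot4 and Acot6 alone were at −1.01, −0.28 and −0.74, and −0.0775 for refeeding in controls, where Acot3 and Acot4 alone were at 0.04 and 0.41.

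Leaving out 1 library at a time, genes called ran from 1048 (without S44) to 1985 in fasted LKO, from 197 (S48) to 517 in refed LKO (225 without S55, 293 without S54, 300 without S50 or S53), from 1220 (S40) to 2483 for refeeding in controls (1365 without S50), and from 8 (S48) to 282 (S49) in the interaction, where 14 of the 16 omissions moved the count by over 1.5 times. Members called ran from 4 to 6, 0 to 2, 1 to 3 and 0 to 2 in these comparisons, and from 6 to 7 for refeeding in LKO. Estimates that changed sign ran from −0.0300 to 0.42 for Acot6 in fasted LKO, −0.0464 to 0.0926 for Acot12 and −0.11 to 0.0194 for Acot13 in refed LKO, −0.16 to 0.17 for Acot3 on refeeding of controls, and −0.0850 to 0.0724 for Acot8 and −0.0325 to 0.10 for Acot13 in the interaction. The cause of these shifts was not tested. No paired analysis was possible because the count columns carry no replicate numbers. Nor do the labels state that samples with the same number in different groups form pairs, so such numbers alone would not define any. Acot5 and Acot6 are limited by depth, with at most 15 and 55 counts a library.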
